A study of Mus musculus with 6 samples.

Results

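The major histocompatibility complex (MHC) class II pathway was described at the level of RNA in kidneys of *Pkd1* F/RC mice. It was represented by 8 genes picked by name: *H2-Aa*, *H2-Ab1*, *H2-Eb1*, *H2-DMa*, *H2-DMb1*, *Cd74*, *Ciita* and *Cd86*. All 8 were among the 23276 gene symbols of the authors' table and took up 16 of its 54721 transcript entries. Total kidney RNA of 6 mice was sequenced at postnatal day 22. In 3 of them the genotype was KspCre; Pkd1 F/RC (SKO, single knockout), and in the other 3 it was KspCre; Pkd1 F/RC with floxed miR17~92 (DKO, double knockout). All 6 mice carried Ksp/Cre, a Cre recombinase active in kidney tubule epithelium, and the same pair of *Pkd1* alleles, 1 floxed and 1 RC, a hypomorphic allele. The cluster was thus deleted only in cells in which Ksp/Cre had been active, while RNA was taken from the whole kidney. No kidney with intact *Pkd1* was analysed here.

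The study compared SKO with DKO kidneys. The table gives 1 mean log2 CPM (counts scaled to the size of the library) for each transcript over all 6 kidneys and 0 columns of single kidneys. Its other 4 value columns hold the authors' own comparison of the groups and were not used. A difference between SKO and DKO kidneys, the spread between mice and the depth of each library are therefore not given here, and every level below is the authors' mean with no error. The order of genes by level can be read from such means, but whether neighbours in that order differ beyond the spread between mice was not tested.

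Class II molecules present peptides from endosomes to CD4+ T cells. An alpha and a beta chain pair in the endoplasmic reticulum with the invariant chain, the product of *Cd74*, which blocks the groove and guides the complex to endosomes. There the invariant chain is cut down to a short peptide, CLIP, and the DM heterodimer encoded by *H2-DMa* and *H2-DMb1* exchanges CLIP for antigen peptides. *Ciita* encodes the transactivator that class II promoters require, and *Cd86* encodes a costimulatory ligand of CD28 on the T cell. Dendritic cells, macrophages and B cells are the usual class II-positive cells, and interferon-gamma can induce the pathway in tubule epithelium.

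The promoters of the chain genes share a short module of S, X and Y boxes, to which the RFX complex, CREB and NF-Y bind and CIITA is recruited. Promoters of 4 of the 8 genes were taken from the RefSeq table of GRCm38.p6, each 300 bases long with 250 bases before the start site and 50 after. The promoter of *Cd74* was left out, and none was found for *H2-Ab1*, *Ciita* and *Cd86*. The 3 that follow hold the letters of a Y box close to the start. Capitals mark the X1 core (ACNGATG) and the Y box (ATTGG) on either strand, and the sequence is that of the gene's own strand, 5′ to 3′. They lie at chr17:34305617-34305916 on the forward strand (*H2-Eb1*), chr17:34152941-34153240 on the forward strand (*H2-DMb1*) and chr17:34287774-34288073 on the reverse strand (*H2-Aa*).
H2-Eb1: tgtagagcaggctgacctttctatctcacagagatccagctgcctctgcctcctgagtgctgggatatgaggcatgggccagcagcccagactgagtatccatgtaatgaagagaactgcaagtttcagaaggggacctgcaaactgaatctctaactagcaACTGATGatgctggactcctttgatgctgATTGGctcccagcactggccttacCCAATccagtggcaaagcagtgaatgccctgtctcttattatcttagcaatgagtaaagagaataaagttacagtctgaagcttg
H2-DMb1: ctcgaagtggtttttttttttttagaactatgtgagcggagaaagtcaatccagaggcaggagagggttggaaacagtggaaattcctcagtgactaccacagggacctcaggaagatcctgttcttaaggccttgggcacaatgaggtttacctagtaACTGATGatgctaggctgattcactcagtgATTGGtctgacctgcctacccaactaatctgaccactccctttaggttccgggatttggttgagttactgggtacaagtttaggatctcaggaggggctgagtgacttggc
H2-Aa: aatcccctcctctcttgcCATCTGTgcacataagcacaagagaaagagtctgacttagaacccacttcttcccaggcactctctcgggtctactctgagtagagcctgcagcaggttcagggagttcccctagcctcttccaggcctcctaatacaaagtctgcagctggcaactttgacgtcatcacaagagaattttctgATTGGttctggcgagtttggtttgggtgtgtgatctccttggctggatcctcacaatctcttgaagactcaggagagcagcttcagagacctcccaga

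In the *H2-Eb1* promoter the X1 core began 88 bases before the start site and the Y box followed 29 bases after the first letter of the X1 core. In the *H2-DMb1* promoter the X1 core began 91 bases before the RefSeq start site and the step to the Y box was 30 bases. That site lies 119 bases downstream of the start of the *H2-DMb1* transcript in GENCODE M21, the annotation used here for lengths. Both boxes therefore lie before the RefSeq start site but after the GENCODE one. Where the transcript counted by the authors starts is not known here. The order X1 core then Y box on 1 strand, with a step of 20 to 35 bases, was found in 43 of all 32851 promoters of the table (0.131%). *H2-Aa* had a Y box 48 bases before the start. Its only match to the X1 core lay on the other strand, 232 bases before the start and ahead of the Y box, so the pair was not found there. The promoter window of *H2-DMa* held neither the X1 core nor the Y box, and its single S box match (GGACC) lay 38 bases after the start on the other strand. That window differed from the others in base composition, with 73% G and C and 29 CG dinucleotides, against 48% and 0 in *H2-Eb1*, 47.3% and 3 in *H2-DMb1* and 50.7% and 3 in *H2-Aa*. The median promoter of the table had 52.7% G and C and 7 CG dinucleotides. A second *H2-DMa* window listed by RefSeq, 2686 bases from the start of the transcript in GENCODE M21, had a Y box and an S box but no X1 core. *H2-DMa* was not searched outside these windows.

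On their own the letters are common. A Y box on either strand was present in 37.4% of all promoters, an S box in 45.5% and an X1 core in 9.85%. S box letters stood ahead of the X1 core in *H2-Eb1*, 117 bases before the start, and in *H2-DMb1*, 147 bases before it. Matches to the interferon-gamma activated site (TTCNNNGAA), the interferon element (GAAANNGAA), the E box (CACGTG) and the TATA box (TATAAA) were not present in any of these 4 promoters, and were found in 8.30%, 8.56%, 7.15% and 13.6% of all promoters, respectively. A match is a string of letters and no evidence of binding.

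**Figure D1:**
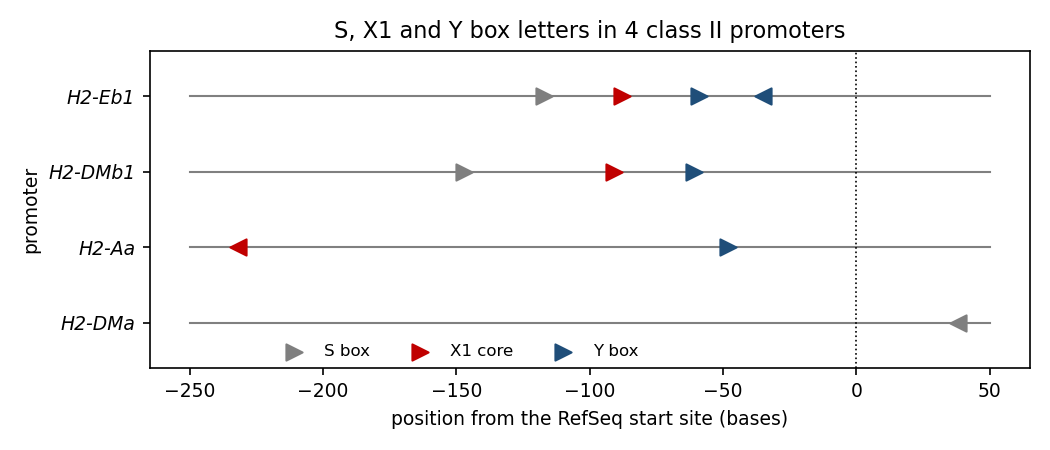
Positions of S box, X1 core and Y box letters (bases from the RefSeq start site) in the promoters of *H2-Eb1*, *H2-DMb1*, *H2-Aa* and *H2-DMa*. Triangles pointing right are on the gene's strand and those pointing left on the other strand. The X1 core and Y box of *H2-Eb1* and *H2-DMb1* line up at almost the same distance from the RefSeq start sites. For the X1 core this is 88 and 91 bases. The *H2-DMb1* site is 119 bases downstream of the start of the transcript in GENCODE M21.

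Per kilobase, the genes for the classical chains stood above most gene symbols of the table. *H2-Ab1*, the beta chain of the I-A molecule, had a mean log2 CPM of 4.22, or 18.7 CPM. *H2-Aa*, its alpha chain partner, had a mean log2 CPM of 4.05, or 16.5 CPM. Their transcripts are 1212 and 1128 bases long, so that levels per length were 15.4 CPM per kilobase for *H2-Ab1* and 14.7 CPM per kilobase for *H2-Aa*. The level of *H2-Aa* per kilobase was 0.952 times that of *H2-Ab1*. *H2-Ab1* exceeded 91.8% and *H2-Aa* 91.5% of the 22671 gene symbols for which a transcript length was found. Among those with at least 1 CPM the shares were 85.6% and 85.0%. By mean CPM, without regard to length, *H2-Ab1* exceeded 62.5% and *H2-Aa* 58.8% of gene symbols with at least 1 CPM.

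*H2-Eb1*, the beta chain of the I-E molecule, was lower, with a mean log2 CPM of 3.35 (10.2 CPM). At a transcript length of 1669 bases this was 6.11 CPM per kilobase, 0.397 times the level of *H2-Ab1*, and above 79.9% of gene symbols. Among those with at least 1 CPM, *H2-Eb1* exceeded 64.7% per kilobase and 42.9% by mean CPM. Its alpha chain partner is encoded by *H2-Ea*, which mice of the B6 background, used in this study, do not express. The entry of that gene in the table, *H2-Ea-ps*, was at the lowest value of the table, 0.0263 CPM, a value shared by 4617 transcripts. The *H2-Eb1* entry was at 387 times that value.

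*Cd74* was the most abundant of the 8 genes. It has 2 entries, NM_001042605 with a mean log2 CPM of 5.13 (34.95 CPM) and NM_010545 with 5.10 (34.2 CPM). Per kilobase the entry with the higher CPM reached 24.8 CPM, above 95.2% of gene symbols and 1.61 times *H2-Ab1*. The shorter entry, NM_010545, had 27.9 CPM per kilobase. All ratios and shares given for *Cd74* use the value of 24.8. The longer form has 9 exons and the shorter 8. The longer one codes for 64 residues more (192 bases), the extra exon of the p41 form of the invariant chain. The 2 entries share 1218 bases, 86.4% of the longer and 99.5% of the shorter, so that the CPM does not separate the forms. Set against the summed level of *H2-Aa*, *H2-Ab1* and *H2-Eb1*, 36.2 CPM per kilobase, that of *Cd74* was 0.685 times as high. In the sum over the 8 genes, 67.3 CPM per kilobase, *Cd74* took 36.8% and the 3 chain genes 53.7%.

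The genes for peptide loading were present at lower levels. *H2-DMb1* had a mean log2 CPM of 2.47 (5.54 CPM) and *H2-DMa* 1.26 (2.40 CPM). Per kilobase these were 3.94 CPM for *H2-DMb1*, with a transcript of 1404 bases, and 1.45 CPM for *H2-DMa*, with 1658 bases. The alpha chain was therefore at 0.367 times the beta chain, unlike the nearly even pair of *H2-Aa* and *H2-Ab1*. These ratios rest on lengths from GENCODE M21, and the lengths of the models that the authors counted are not known here. *H2-DMb1* has a close copy, *H2-DMb2*. Of the 1354 stretches of 51 bases (the read length) in the *H2-DMb1* transcript, 363 also occur in transcripts of *H2-DMb2*, or 26.8%. Reads from these stretches cannot be assigned by sequence and the authors discarded alignments of low mapping quality, so the level of *H2-DMb1* is uncertain to that extent. *H2-DMb2* itself had 0.216 CPM per kilobase. None of the other 7 genes shared a stretch of that length with another gene's transcripts.

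*Ciita* and *Cd86* were the least abundant. *Ciita* has 7 entries, 3 from RefSeq and 4 assembled from the reads. The RefSeq entries had 1.71 CPM (NM_001243760), 1.68 CPM (NM_001243761) and 1.67 CPM (NM_007575), and the assembled entries ranged from 1.960 to 1.9996 CPM. Per kilobase the RefSeq entry with the highest CPM had 0.404 CPM, above 42.9% of gene symbols but above only 3.66% of those with at least 1 CPM. The other RefSeq entries had 0.424 (NM_001243761) and 0.279 CPM per kilobase (NM_007575). The transactivator was thus listed at 65.0 times the lowest value of the table, but *H2-Ab1* was 38.1 times and *Cd74* 61.3 times as high per kilobase. The 3 RefSeq entries start at different first exons on the forward strand of chromosome 16, at 10480059, 10488279 and 10489781. In mice the first exons of *Ciita* are used by different cells, the one farthest upstream mainly by dendritic cells and macrophages and the one farthest downstream in response to interferon-gamma. The entries share 3869 bases, 91.3%, 64.4% and 97.9% of their lengths in the order of their start sites, and the first exons are 368, 146 and 84 bases long. With so much sequence in common, the use of the first exons cannot be read from the 3 values. On the other strand, 111 bases of the *Ciita* exons overlap *Dexi*, and the libraries were strand-specific.

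*Cd86* had a mean log2 CPM of 0.46 (1.38 CPM) for the RefSeq entry and -0.69 (0.619 CPM) for an assembled one. Per kilobase of its 2539 bases the RefSeq entry had 0.542 CPM, above 45.3% of gene symbols and above 6.08% of those with at least 1 CPM. *H2-Ab1* was 28.4 times as high. All 8 genes had at least 1 CPM, as did 13001 of all 23276 gene symbols. Across the 8 the median was 5.03 CPM per kilobase, against 0.918 over all gene symbols with a length and 3.94 over the 12853 of these with at least 1 CPM. Of the 8, 6 lay above the first of these medians and 5 above the second.

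**Figure D2:**
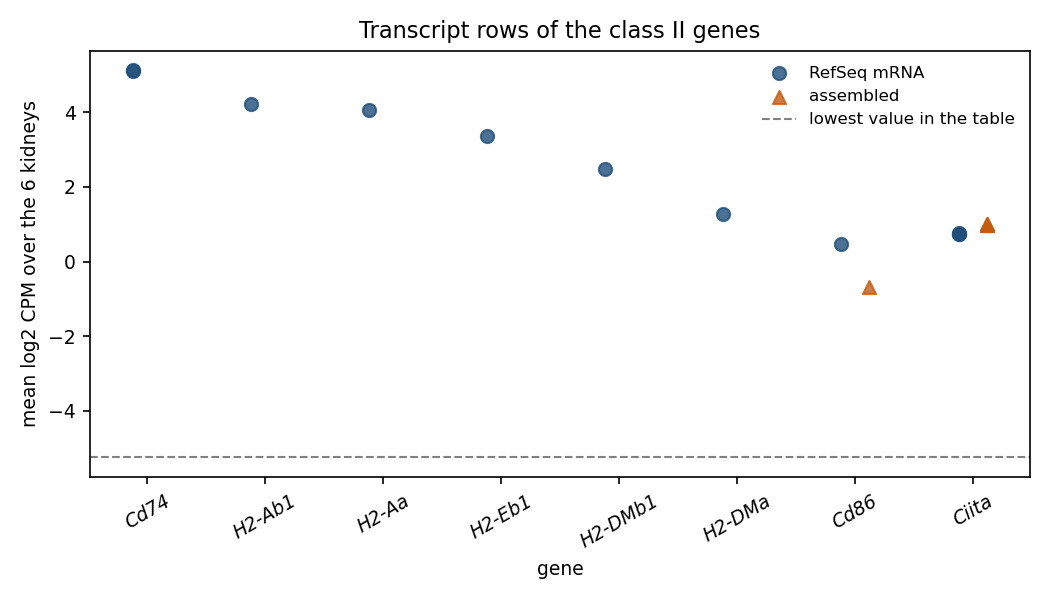
Mean log2 CPM over the 6 kidneys (y axis) of the 16 transcript entries of the 8 genes (x axis, in order of CPM per kilobase), with circles for RefSeq mRNAs, triangles for entries assembled from the reads and a dashed line at the lowest value of the table. The entries of *Cd74* (5.13 and 5.10) and those of *Ciita* (0.74 to 0.9997) nearly coincide, whereas the *Cd86* entries stand apart (0.46 and -0.69).

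The chain and loading genes lie together on chromosome 17 of mm10, within 194 kb from the start of *H2-DMa* (34122832) to the end of *H2-Eb1* (34316674). *H2-DMa* and *H2-DMb1* are both on the forward strand, 14.0 kb apart, with *H2-DMb2* between them. *H2-Ab1* (34263209 to 34269419, forward strand, 6 exons) and *H2-Aa* (34282744 to 34287823, reverse strand, 5 exons) point towards each other across a gap of 13.3 kb, and *H2-Eb1* (34305867 to 34316674, 6 exons) follows 18.04 kb further on. Levels per kilobase were 1.45 and 3.94 CPM in the loading pair, 15.4 and 14.7 CPM in the I-A pair and 6.11 CPM in *H2-Eb1*. *Cd74* lies outside this region, on chromosome 18, and *Ciita* and *Cd86* (36603869 to 36666077, reverse strand) lie on chromosome 16.

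**Figure D3:**
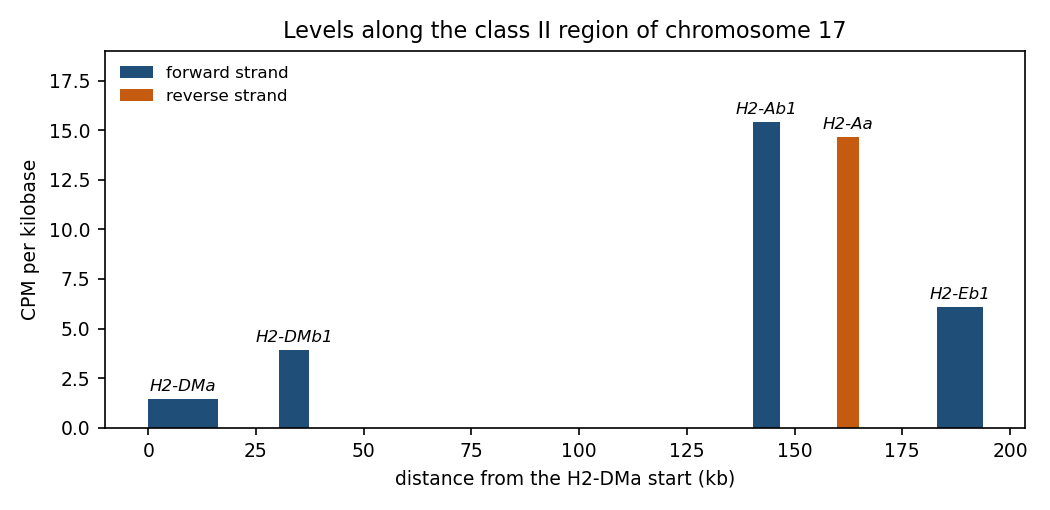
CPM per kilobase (y axis) of the 5 genes of the class II region against the distance in kb from the start of *H2-DMa* (x axis), with the width of a bar giving the length of the gene and its colour the strand. The 2 I-A genes, *H2-Ab1* and *H2-Aa*, stand side by side at 15.4 and 14.7, above *H2-Eb1* at 6.11 and the DM genes at 3.94 and 1.45.

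Other genes of the pathway were examined from a list of 32 symbols, of which 31 were found in the table and 25 had at least 1 CPM. Over all gene symbols, 13001 of 23276 had at least 1 CPM. The symbol not found was *H2-Ea*, which the list also holds as *H2-Ea-ps*. The remaining class II genes were rare. *H2-Oa* and *H2-Ob*, the chains of the DO heterodimer that restrains DM, had 0.1201 and 0.131 CPM per kilobase, so that *H2-DMb1* was 32.83 and 30.04 times as high. *H2-Eb2* was lower still, at 0.0205 CPM per kilobase. None of the 5 class II genes of that list reached 1 CPM. In contrast, all 7 endosomal enzymes passed 1 CPM, and their levels ran from 9.80 CPM per kilobase for *Sppl2a*, an intramembrane protease that clears the invariant chain stub, to 157 for *Ctsd* (cathepsin D), over the 6 that had a length. *Ctss*, the cathepsin that trims the invariant chain in antigen-presenting cells, had 10.4 CPM per kilobase, close to *Sppl2a* at the low end, and *H2-Ab1* was 1.48 times as high. *Ctsl* (cathepsin L) had 142 and *Lgmn* (asparaginyl endopeptidase) 104.7 CPM per kilobase. The RNA came from whole kidneys, and which cells the RNA of these enzymes came from was not tested.

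The 7 subunits of the factors that bind the X and Y boxes all had at least 1 CPM, from 2.04 CPM per kilobase for *Rfxap* to 16.7 for *Nfyc*, with a median of 5.58. *Rfx5*, the DNA-binding subunit of RFX, had 2.22 CPM per kilobase. Each of the 7 was thus above *Ciita* at 0.404 CPM per kilobase. Genes of the interferon-gamma response also passed 1 CPM in 7 of 7 cases and ranged from 1.97 CPM per kilobase for *Irf8* to 14.3 for *Jak1*. Among costimulatory genes, *Cd80*, the relative of *Cd86* that binds the same receptors, had 0.0916 CPM per kilobase, 0.169 times the level of *Cd86*, and *Cd40* had 0.961. *March1*, a ubiquitin ligase that sends class II and CD86 to lysosomes, had 0.771 CPM per kilobase, *Cd83*, which opposes it, 0.692, and the widely expressed *March8* 14.3.

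**Figure D4:**
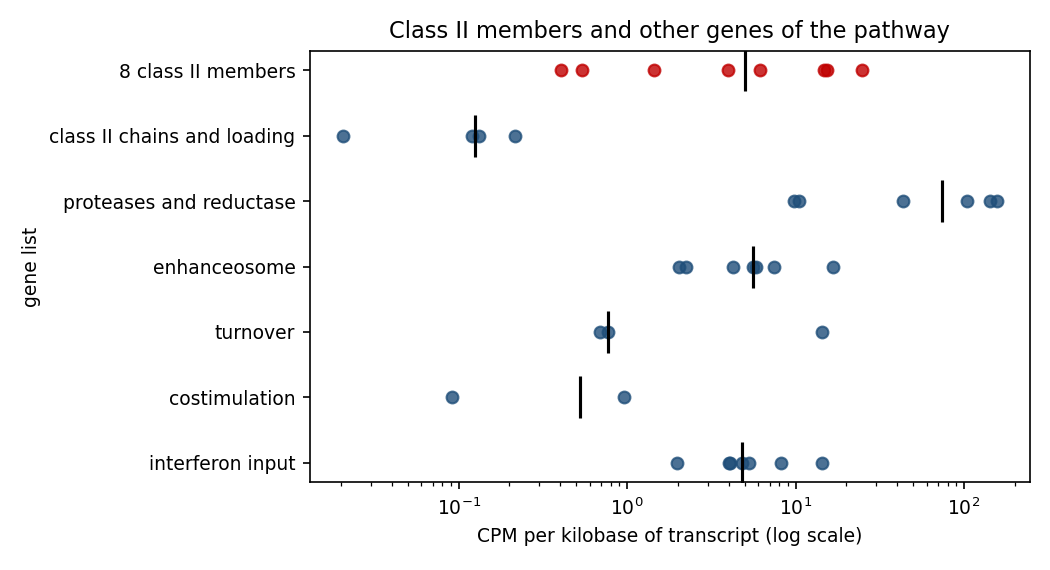
CPM per kilobase of transcript (x axis, log scale) of the 8 genes and of 6 lists of other pathway genes (y axis). Each point is a gene and each vertical bar the median of its list, and the other class II chain genes (median 0.126) lie to the left of all 8 genes, whose range is 0.404 to 24.8, while the endosomal enzymes reach highest (9.80 to 157, median 74.0).

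The samples were whole kidneys, in which fewer cells of a type and less RNA per cell cannot be told apart. Markers of tubule segments ranged from 11.4 CPM per kilobase for *Cubn* to 374 for *Umod* and 423 for *Slc34a1*. *Cubn* was below *Cd74*, *H2-Ab1* and *H2-Aa*, and the other tubule markers were above them. Of the usual class II-positive cells, macrophages had all 11 of their markers at 1 CPM or more. Over all gene symbols, 13001 of 23276 were at that level. The median of the macrophage markers was 5.78 CPM per kilobase, with *Lyz2* highest at 13.4. Levels of the complement genes *C1qa*, *C1qb* and *C1qc* were 8.49, 8.25 and 6.59 CPM per kilobase, above *H2-Eb1* and below *H2-Aa*. Dendritic cell markers were sparser, 2 of 8 having at least 1 CPM (*Zbtb46* and *Itgax*), with a median of 0.197 CPM per kilobase. None of the 5 B cell markers reached 1 CPM, with a median of 0.0814 CPM per kilobase. Of the 5 T cell markers, *Cd4* alone did so, and *Cd3e* was at 0.110 CPM per kilobase. No marker of these 4 lists was at the lowest value of the table. Endothelial markers (4.15 to 23.3 CPM per kilobase) and podocyte markers (2.22 to 10.6) also lay within the range of the 8 genes. The part of each cell type in the class II RNA was not tested.

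**Figure D5:**
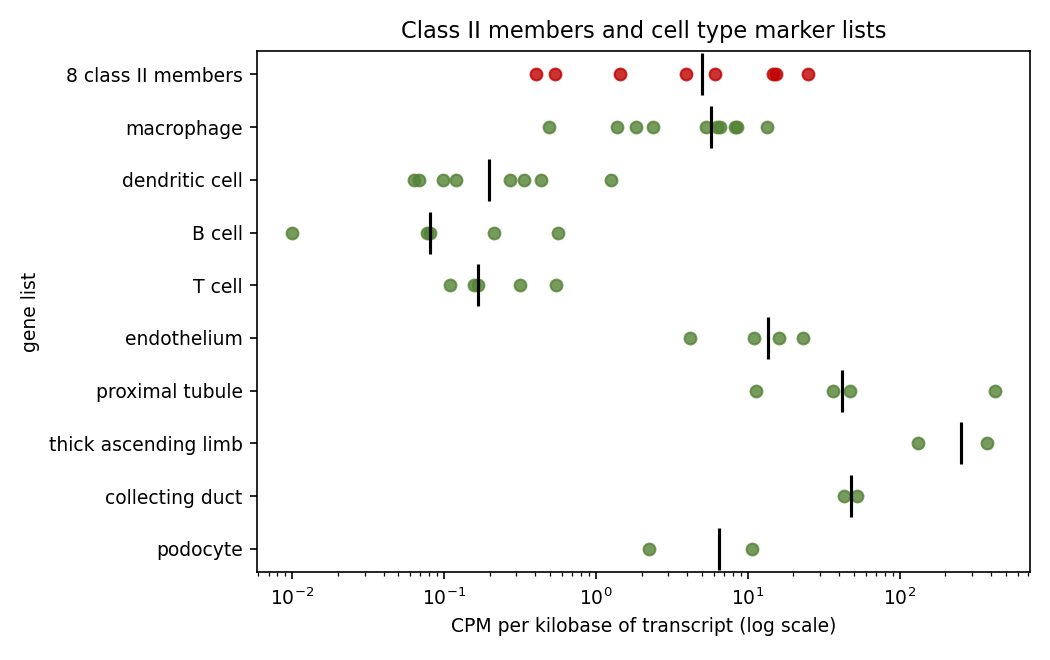
CPM per kilobase of transcript (x axis, log scale) of the 8 genes and of 9 lists of cell type markers (y axis), with a point for each gene and a vertical bar at the median of its list. Macrophage markers (0.488 to 13.4) span much of the range of the 8 genes, whereas dendritic cell, B cell and T cell markers lie lower, with medians of 0.197, 0.0814 and 0.167. Endothelial (4.15 to 23.3) and podocyte markers (2.22 to 10.6) also lie within the range of the 8 genes.

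The cluster deleted in DKO mice gives rise to 6 guide miRNAs, and matches to their seeds were sought in the 3′-untranslated regions of the 8 genes. The miRNAs are shown 5′ to 3′ in their order on the forward strand of chromosome 14, from RefSeq on GRCm38.p6, with the seed (bases 2 to 8) in capitals.
miR-17-5p: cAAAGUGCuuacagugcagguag
miR-18a-5p: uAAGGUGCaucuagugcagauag
miR-19a-3p: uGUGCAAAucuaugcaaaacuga
miR-20a-5p: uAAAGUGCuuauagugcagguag
miR-19b-3p: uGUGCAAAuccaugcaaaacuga
miR-92a-3p: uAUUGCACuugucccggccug

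The 6 fall into 4 seed groups, since miR-17-5p and miR-20a-5p share AAAGUGC and miR-19a-3p and miR-19b-3p share GUGCAAA, while miR-18a-5p and miR-92a-3p have a seed each. A perfect match of 7 bases to any of the 4 seeds was found in 0 of the 8 genes, in the 3′-untranslated region of the transcript used for the level. The same held for all 11 RefSeq transcripts of these genes. Over 18917 genes of the table with such a region, 26.4% had at least 1 match, 11.03% to the seed of miR-17-5p and miR-20a-5p, 10.05% to that of miR-19a-3p and miR-19b-3p, 7.22% to that of miR-18a-5p and 5.98% to that of miR-92a-3p. The regions of the 8 genes differed in length. They ranged from 280 bases in *H2-DMa*, 291 in *H2-DMb1*, 300 in *H2-Aa* and 311 in *H2-Ab1* to 787 in *H2-Eb1* and 1493 in *Cd86*, with a median of 397.5 bases against 786 over all genes. Those of *H2-Eb1* and *Cd86* were above the median of all genes. Absence of these letters says nothing of other kinds of miRNA site.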

How the data were processed

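Kidney RNA of 3 SKO and 3 DKO mice was sequenced as strand-specific 51-base single-end reads. The build was mm10 and the gene models came from iGenomes, and alignments of low mapping quality were not counted by the authors. The submitters' processing notes name TopHat2 2.0.12, Cufflinks, featureCounts of Subread 1.4.6 and edgeR 3.2.4. The values used were the deposited mean log2 CPM of each transcript, taken here as the mean that the authors obtained with edgeR over all 6 libraries. The other deposited columns hold the authors' log2 fold changes, test statistics, p-values and adjusted p-values, and were left out. No fit was run here, because the table has no value for a single kidney. The depth of the libraries is unknown, so no interval was set.

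A gene was represented by its entry with the highest mean CPM. CPM per kilobase used the RefSeq entry with the highest CPM and a length in GENCODE M21 (GRCm38, the assembly of mm10), a later annotation than the authors'. Reads appear to have been counted for each overlapping transcript: 1822 gene symbols have entries with exactly equal values. Of the listed genes, 1 was found under an older symbol. The text names all 8 genes, those at the ends of each other list, and partners of the 8. *Ctss*, *Ctsl*, *Lgmn*, *Rfx5*, *Cd4*, *Itgax*, *Zbtb46* and the complement genes were named after their values were seen. The 8 genes, the lists and the motifs were chosen with earlier results of these data known. The seed search was added once the table had been read. Python 3.11.15, numpy 2.4.6 and pandas 2.3.3 were used, and the level and motif code was tested on simulated data.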

Additional observations from a re-analysis of the deposited data

How the results depend on the processing

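No replicate spread was available, so a value was counted as unchanged when it was the same to 3 significant digits. The median mean CPM of the 8 genes, 7.87, became 11.6 when the entries of a gene were summed and 7.84 when the lowest value of the table was subtracted. The median share of genes below them, 63.5%, became 34.7% among genes of at least 1 CPM. Using RefSeq entries only altered *Ciita* alone, which went to 1.71 CPM. Dividing a gene's highest CPM by its longest RefSeq length also altered *Ciita* alone, to 0.333 CPM per kilobase. That CPM is of an assembled entry, and the longest RefSeq entry itself had 0.279. The median per kilobase (5.03) and both partner chain ratios rest on genes with a single entry, so the alternatives could not move them and say nothing of their stability. Summing counts shared reads several times and raised *Ciita* from 1.9996 to 13.0 CPM and *Cd74* to 69.2 CPM. Per kilobase summing moved *Ciita* to 2.74, above *H2-DMa* and *Cd86*, the single change of order among the 3 orders compared. Leaving out a kidney was not possible without values of single kidneys. No paired analysis was possible because the table holds no values of single kidneys. Depth limits what can be said of genes near 0.0263 CPM, the lowest value.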
